A study of Homo sapiens with 2 samples.

Results

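Clusterin (CLU) and the genes of 7 receptors and 1 intracellular partner linked to it were described in D407 cells, a human line that the labels give as adult retinal pigment epithelium (RPE). The 9 genes were taken by name from a table of 37364 genes, and all 9 were listed in it. They are the secreted ligand CLU, the receptors LRP1, LRP2, LRP8, VLDLR, SCARF1, TREM2 and PLXNA4, and the DNA repair gene XRCC6. Poly(A)-enriched RNA was sequenced in 2 libraries, 1 from cells given clusterin and 1 from control cells, both grown in medium with fetal bovine serum. The sources used here give neither the dose of clusterin nor the length of the treatment. Each group has 1 library, so differences between them could not be set against replicates, and the intervals below cover counting error only.

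Clusterin, also called apolipoprotein J, is an extracellular chaperone that binds misfolded proteins and travels on lipoprotein particles. Megalin (LRP2), the apolipoprotein E receptor 2 (LRP8) and the very low density lipoprotein receptor (VLDLR) belong to the low density lipoprotein (LDL) receptor family, whose members bind such particles outside the cell and carry them in through coated pits. LRP8 and VLDLR are also the receptors of reelin, and TREM2, a receptor of microglia and other myeloid cells, binds lipoproteins that carry clusterin. XRCC6 encodes Ku70, which holds broken DNA ends together with Ku80 and has been described as a partner of intracellular clusterin.

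Levels are given in RPKM, reads scaled to transcript length and to the library total. For a transcript 1 kb long, 1 RPKM was worth 38.2 reads in the control library and 33.2 in the clusterin library, since the control was sequenced more deeply. Of 12 RPE markers 8 were listed at 0 in both libraries, RPE65, RLBP1, LRAT and TTR among them. MITF was the highest at 9.70 RPKM in the control and 9.88 with clusterin. BEST1, at 2.14 and 1.73 RPKM, was the only other one with a mean of at least 1 RPKM. The zeros of all marker genes are given only as listed, with the limit stated below for TREM2 and PLXNA4. Of 6 simple epithelial markers the 4 keratins were measured, KRT7 the highest at 407 and 420 RPKM, EPCAM was at 0 and CDH1 had 3 and 4 reads. Of 8 microglia and leukocyte markers 4 were at 0, among them PTPRC and ITGAM, and CD68, at 6.17 and 5.93 RPKM, made up most of their summed level of 7.27 and 6.96. TUBB3 (1.73 and 2.31 RPKM) led the neuron markers and ENG (2.83 and 2.52) the endothelial ones.

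The 9 genes differed widely in level, and 5 of them were measured, meaning a mean of at least 1 RPKM over both libraries. XRCC6 and CLU were abundant, LRP8 was the only receptor of the 7 above 2 RPKM, LRP1 and VLDLR lay between 1 and 2 RPKM, SCARF1 and LRP2 were below 0.1 RPKM, and TREM2 and PLXNA4 were listed at 0. This order was the same in both libraries. In RNA from whole cultures, fewer cells with a transcript and less of it per cell cannot be told apart. None of the 5 measured genes passed a 2-fold difference, taken as at least 1 on the scale of log2((clusterin RPKM + 1)/(control RPKM + 1)), against 0.219% of the 13244 measured genes.

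**Figure D1:**
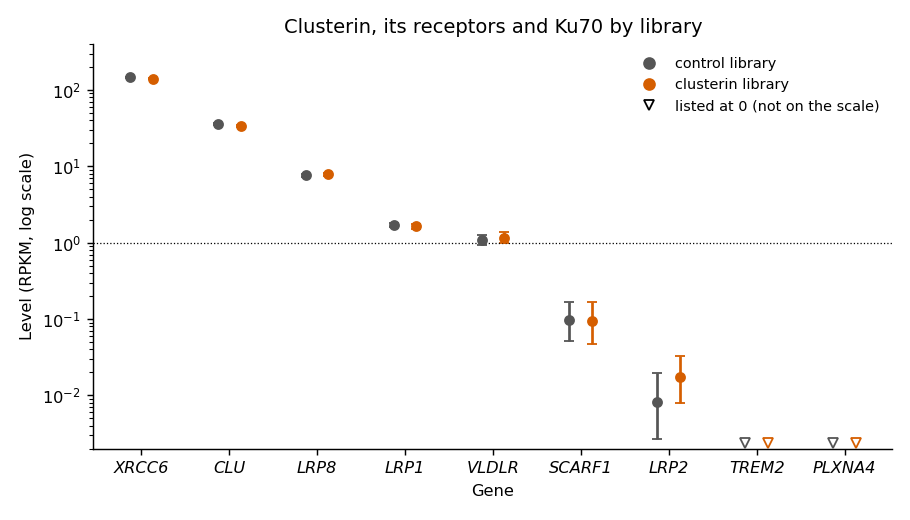
Level of each of the 9 genes in the control library (grey) and the clusterin library (orange), in RPKM on a log scale, with exact 95% Poisson counting intervals. Open triangles mark genes listed at 0, and the dotted line is 1 RPKM. The genes run in the same order in both libraries, from XRCC6 at 147 and 141 RPKM down to LRP2 at 0.00831 and 0.0172.

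CLU (chromosome 8, 27596917 to 27615031, minus strand, GRCh38) stood at 35.9 RPKM in the control library (95% counting interval 34.8 to 36.9) and 33.8 in the clusterin library (32.7 to 34.9). These levels came from 4532 and 3699 reads, on a transcript length of 3.303 kb. The gene ranked 1291 of the 20642 genes above 0 in the control and 1345 with clusterin, above 93.7% and 93.5% of them. Since the cells were given the protein, these levels describe the cells' own transcript. The RPKM ratio was 0.941 (0.900 to 0.983). Over the 13676 genes with at least 100 recovered reads the median ratio was 0.951, so the interval of CLU held the general offset between the libraries. On the log2 scale CLU lay 0.02 below that median (log2 ratio -0.09), and 45.4% of those genes had a lower ratio.

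Among genes listed by symbol, the 5 whose levels lay nearest to those of CLU were COPG1, CALU, COPS6, HILPDA and SSBP1. Nearness was the distance of log2(RPKM + 1) over the 2 libraries. COPG1, a subunit of the coat of Golgi vesicles, was the nearest at 35.8 and 33.9 RPKM. CALU, a calcium-binding protein of the endoplasmic reticulum, followed at 35.9 and 34.1 RPKM. The distances ran from 0.00531 to 0.015, and with 2 libraries they say only that these genes had like levels and ratios.

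Among the 4 clusterin receptors of the LDL receptor family, LRP8 had the highest level. LRP8 (chromosome 1, 53242364 to 53328149, minus strand) stood at 7.65 RPKM in the control (7.34 to 7.97) and 7.82 with clusterin (7.48 to 8.17), from 2274 and 2018 reads. The ratio was 1.02 (0.963 to 1.09), an interval that held 1 and lay just above the general offset of 0.951. The intervals cover counting error only, and the genes with at least 100 reads spread further, the middle 95% of them between log2 ratios of -0.48 and 0.31. LRP8 lay well inside that range, at 0.03. Of the genes with at least 100 reads 77.8% had a lower ratio. The level of LRP8 was 4.501 times that of LRP1 in the control (4.17 to 4.86) and 4.79 times with clusterin (4.41 to 5.21). Against VLDLR, the closest relative of LRP8 in the set, the factors were 7.04 (5.97 to 8.36) and 6.74 (5.68 to 8.06).

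LRP1 (chromosome 12, 57128499 to 57213359, plus strand), a large endocytic receptor with many ligands, stood at 1.699 RPKM (1.59 to 1.81) and 1.63 (1.52 to 1.75). Its long transcript, 14.9 kb, gave 967 and 806 reads in spite of the low level. The ratio was 0.961 (0.874 to 1.06), close to the general offset. VLDLR (chromosome 9, 2621679 to 2656100, plus strand) stood at 1.09 RPKM (0.920 to 1.27) and 1.16 (0.976 to 1.37), from 151 and 140 reads. Its ratio of 1.07 (0.843 to 1.35) held 1 and the offset. LRP1 lay above VLDLR by a factor of 1.56 in the control (1.32 to 1.87) and 1.41 with clusterin (1.17 to 1.69), so these neighbours in the order were apart by more than counting error in each library.

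Megalin had very few reads. LRP2 (chromosome 2, 169127109 to 169362613, minus strand) had only 5 control and 9 clusterin reads over a transcript of 15.7 kb, levels of 0.00831 and 0.0172 RPKM. The RPKM ratio of 2.07 had a counting interval of 0.624 to 7.88, so no difference was detectable at this depth. The receptor SCARF1 (chromosome 17, 1633858 to 1645789, minus strand), a scavenger receptor first described on endothelial cells, had 13 and 11 reads, levels of 0.0965 and 0.0941 RPKM, and a ratio of 0.975 (0.396 to 2.36). SCARF1 lay above LRP2 by a factor of 11.6 (3.89 to 41.6) in the control and 5.46 (2.06 to 14.9) with clusterin.

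TREM2 (chromosome 6, 41158506 to 41163198, minus strand) and PLXNA4 (chromosome 7, 132123332 to 132648688, minus strand), a class A plexin that receives semaphorin signals, were listed at 0 in both libraries. The smallest number of reads recovered for any gene was 6 over both libraries, so a gene listed at 0 may still have had a few reads. RPS18, which encodes a protein of the small ribosomal subunit and is needed in all cells, carried a 0 as well. The zeros of TREM2 and PLXNA4 are therefore reported only as listed, with no limit and no ratio.

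XRCC6 (chromosome 22, 41621163 to 41664048, plus strand) was the most abundant of the 9 genes, at 147 RPKM in the control (144 to 150) and 141 with clusterin (138 to 144). It had 11993 and 9979 reads and ranked 324 and 332 among the genes above 0. The ratio was 0.959 (0.934 to 0.985), which excludes 1 on counting error and holds the general offset. Its level was 4.0979 times that of CLU in the control (3.96 to 4.24) and 4.18 times with clusterin (4.02 to 4.34). XRCC5, which encodes the Ku80 partner, stood at 55.2 and 51.4 RPKM, so XRCC6 exceeded it by a factor of 2.66 (2.59 to 2.74) and 2.74 (2.65 to 2.83).

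**Figure D2:**
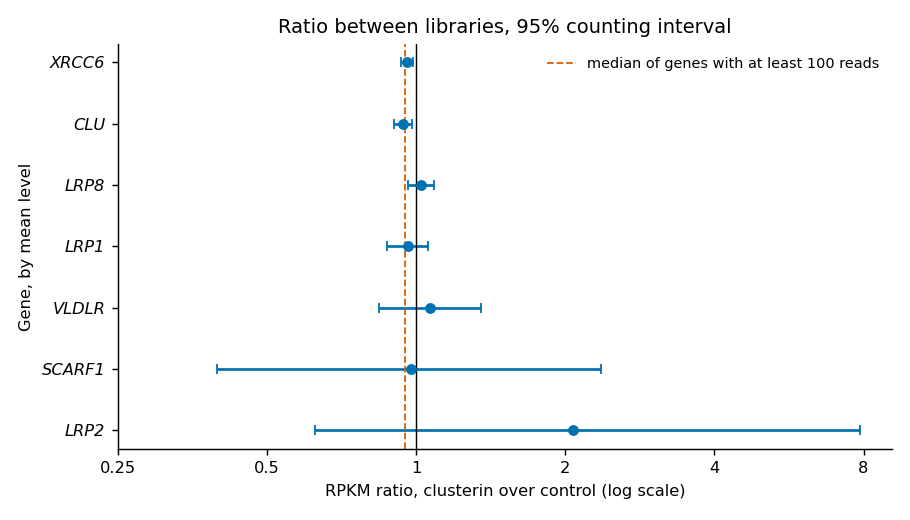
RPKM ratio of the clusterin library over the control on a log axis for the 7 genes above 0, with exact 95% counting intervals, ordered by mean level. The dashed line is the median ratio of 0.951 over genes with at least 100 reads, which lies inside 6 of the 7 intervals and just below that of LRP8 (0.963 to 1.09). The intervals widen from XRCC6 (0.934 to 0.985) to LRP2 (0.624 to 7.88).

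Of the 7 members above 0, 2 had a q below 0.05 in the authors' deposited table, both lower with clusterin, CLU at 0.0485 and XRCC6 at 0.0231. Calls at that q in either direction numbered 2478 of the 20642 genes above 0. Of these calls 2141 were lower with clusterin, 10.4% of the 20642 genes, and 337 were higher. CLU and XRCC6 were the members with the most reads, and their calls came with ratios of 0.941 and 0.959. At a q below 0.01 none of the 7 was called, against 6.50% of genes above 0. The deposited q was 0.661 for LRP1, 0.708 for LRP8, 0.789 for VLDLR, 0.444 for LRP2 and 0.987 for SCARF1. These values compare 2 libraries, since their p-values take account of read sampling only.

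**Figure D3:**
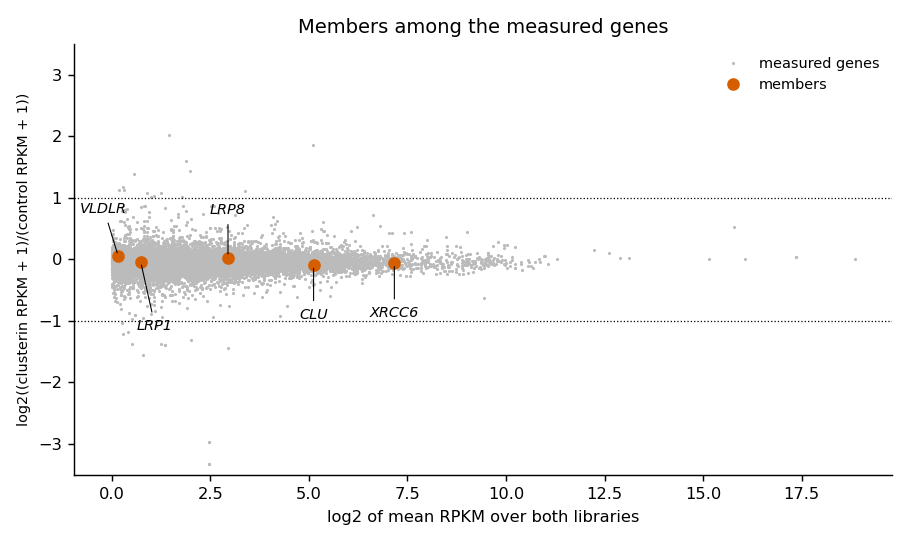
Difference between the libraries, log2((clusterin RPKM + 1)/(control RPKM + 1)), against log2 of the mean RPKM for 13244 measured genes (grey), with the 5 measured members in orange. Dotted lines mark a 2-fold difference, and the members lie within the band of the other genes, between -0.09 for CLU and 0.05 for VLDLR.

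Some members share sequence or a locus with another listed gene, and the sources used here do not say whether counting used strand. Overlaps were searched only among genes listed by symbol, and genes listed by Ensembl ID were left out. VLDLR overlapped 695 bases of FLJ35024 (VLDLR-AS1 in RefSeq) on the opposite strand, which had 22 and 20 reads. LRP8 overlapped 420 bases of LOC100507564 (MAGOH-DT in RefSeq), also on the opposite strand, with 61 and 37 reads. Reads from such pairs cannot be told apart without strand. The hairpin gene MIR1228 lies inside LRP1 on the same strand and had 2 and 4 reads. XRCC6P5, a pseudogene of XRCC6, was listed at 0, and reads of processed copies of XRCC6 would be hard to separate from the gene itself.

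A window before a transcript start was read from RefSeq (GRCh38.p14) for 7 of the 9 genes, and CLU and SCARF1 were not matched. The window given for PLXNA4 lay 72218 bases inside the gene as the table lists it and is left out. The windows of the other 6 lay within 132 bases of the listed start. In the 250 bases before the start, CG dinucleotides numbered 41 in VLDLR, 31 in LRP8, 21 in LRP2, 20 in LRP1, 19 in XRCC6 and 4 in TREM2, against a median of 11 over 35116 promoters. The motif GGGCGG, on either strand, was present in 5 of the 6, all but TREM2, and in 42.6% of all promoters. LRP8, the receptor with the highest level, and TREM2, listed at 0 and with the fewest CG of the 6, are shown for contrast. LRP8 (chr1:53328071-53328320, minus strand) and TREM2 (chr6:41163117-41163366, minus strand) are written 5′ to 3′ with each CG in capitals.
LRP8: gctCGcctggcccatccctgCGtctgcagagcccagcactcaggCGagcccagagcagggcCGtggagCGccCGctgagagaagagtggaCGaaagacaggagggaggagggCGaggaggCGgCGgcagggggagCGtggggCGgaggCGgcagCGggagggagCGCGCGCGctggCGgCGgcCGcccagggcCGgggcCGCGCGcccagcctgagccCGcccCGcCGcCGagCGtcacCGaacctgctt
TREM2: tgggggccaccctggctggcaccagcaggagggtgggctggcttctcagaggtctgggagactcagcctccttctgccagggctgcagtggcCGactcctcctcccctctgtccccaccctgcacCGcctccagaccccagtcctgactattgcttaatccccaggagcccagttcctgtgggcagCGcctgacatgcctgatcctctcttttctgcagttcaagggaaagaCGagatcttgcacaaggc
The number of CG did not follow the level among the members. LRP2, at 0.00831 and 0.0172 RPKM, had 21 and XRCC6, at 147 and 141 RPKM, had 19.

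Other genes of the pathway were taken in 8 lists of 88 genes, chosen with earlier results of these data known. All 88 were listed in the table, MESD under its older symbol MESDC2. Of these 16 were at 0 in both libraries and 53 were measured. None passed 2-fold, against 0.219% of measured genes, 39 of the 53 lay below 0 and 14 above, and 27 lay below the median of all genes. Their median log2 ratio was -0.06, equal at this rounding to the -0.06 of all measured genes, of which 70.2% lay below 0. Of the 53, 11 had a q below 0.05 in the authors' deposited table, against 16.6% of measured genes. Of the list genes above 0 but below a mean of 1 RPKM, 3 more had such a q, all lower with clusterin, LRP4, MYLIP and APOE. Together 14 of the 72 list genes above 0 had such a q, against 2478 of all 20642 genes above 0. Of those 2478 calls, 2196 were among the 13244 measured genes, and only the rest were among genes above 0 but below that mean. The highest and lowest log2 ratios given below for each list are among its measured genes.

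Of 15 other receptors of the LDL receptor and sortilin families 10 were measured, 3 above 0 and 7 below, with a median log2 ratio of -0.01, and SORCS1 and SORCS3 were at 0. LRP5, a Wnt co-receptor, stood at 14.1 and 15.3 RPKM, and its ratio was 1.09 (1.03 to 1.15). LRP3 had the highest log2 ratio, 0.16, at 8.31 and 9.398 RPKM, with a ratio of 1.13 (1.04 to 1.23). The intervals of LRP5 and LRP3 lay above the general offset of 0.951. In the authors' deposited table q was 0.0311 for LRP3 and 0.0271 for LRP5. LRP4, named after its values were seen, stood at 1.08 and 0.824 RPKM, a mean below 1, and its 339 and 225 reads gave a ratio of 0.765 (0.643 to 0.908).

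Proteins that fold, sort or degrade these receptors had 11 of 14 members measured, 3 above 0 and 8 below, with a median log2 ratio of -0.06. APH1A, a subunit of the gamma-secretase that cuts receptor stubs, led this list at 46.2 and 43.9 RPKM, and its ratio was 0.9497 (0.907 to 0.995). SNX27, a sorting nexin, had the highest log2 ratio, 0.07. DAB1, the adaptor that carries the reelin signal from LRP8 and VLDLR, was listed at 0.

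MYLIP, the ubiquitin ligase that marks VLDLR and LRP8 for degradation, had the most distant RPKM ratio of that list, and was named after its values were seen. It stood at 0.792 RPKM in the control and 0.363 with clusterin, below the mean of 1 RPKM required of measured genes. Its 93 and 37 reads gave a ratio of 0.459 (0.304 to 0.678), the 3rd lowest of 13676 genes with at least 100 reads. All 3 genes at or below its ratio were among the 1597 with 100 to 200 reads, where counting error is largest. The 170 genes above 0 without recovered reads were not ranked. With the pseudocount of 1 RPKM, which understates the change of low genes, its log2 ratio was -0.39. In the authors' deposited table its q was 0.000945. The RPKM ratios of these receptors were 1.02 for LRP8 and 1.07 for VLDLR. GULP1, of the same list as MYLIP and also below the mean required, lay in the other direction. This gene too was named after its values were seen. GULP1 had 82 control reads and 106 clusterin reads, and its ratio was 1.49 (1.11 to 2.01). Of the genes with at least 100 reads, 99.6% had a lower ratio than GULP1. The authors' q for GULP1 was 0.0527, above 0.05.

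Of the 15 other ligands 8 were measured, 2 above 0 and 6 below, with a median log2 ratio of -0.07. RELN, the reelin gene, was listed at 0. CALR, calreticulin, was the highest at 347 and 329 RPKM, with a ratio of 0.9497 (0.932 to 0.967). PSAP, prosaposin, at 226 and 204 RPKM, had the lowest log2 ratio of the measured ligands, -0.15, and its reads were not recovered. PDGFB, a platelet-derived growth factor chain, had the highest, 0.17, with 361 and 366 reads, at 2.75 and 3.21 RPKM. APOE, the apolipoprotein E gene, was named after its values were seen. It stood at 0.709 and 0.255 RPKM, below the mean required of measured genes, and its 32 and 10 reads gave a ratio of 0.360 (0.158 to 0.751). In the authors' deposited table its q was 0.0308.

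All 11 other class A plexin, co-receptor and semaphorin genes were above 0 and 8 were measured, 3 above 0 and 5 below on the log2 scale, with a median of -0.08. SEMA3C, a secreted semaphorin, was the highest at 21.6 and 19.4 RPKM and had the lowest log2 ratio, -0.15. PLXNA1 stood at 4.55 and 4.65 RPKM and had the highest, 0.03. None of 7 TREM2 adaptor and signalling genes was measured, and 5 were at 0, including TYROBP, the adaptor through which TREM2 signals, and SYK, the kinase behind it. PLCG2, a phospholipase, stood at 0.367 and 0.459 RPKM, and INPP5D, a lipid phosphatase, had 6 and 1 reads.

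Scavenger receptors other than SCARF1 had 4 of 11 members measured, 1 above 0 and 3 below, with a median log2 ratio of -0.02. SCARB1, the receptor of high density lipoprotein, stood at 46.1 and 45.6 RPKM, with a ratio of 0.987 (0.947 to 1.03). SCARB2, a lysosomal membrane protein, followed at 11.5 and 11.3 RPKM. CXCL16 had the highest log2 ratio of this list, 0.04, and OLR1, a receptor of oxidized LDL, the lowest, -0.03.

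All 8 Ku, end-joining and BAX genes were measured, 1 above 0 and 7 below, with a median log2 ratio of -0.10. PRKDC, the kinase that Ku recruits to DNA ends, was the highest with a log2 ratio of -0.14, at 59.6 and 54.1 RPKM. XRCC5 had a ratio of 0.932 (0.900 to 0.965), whose interval held the general offset. XRCC4, which works with DNA ligase IV, had the highest log2 ratio, 0.10, from 98 and 95 reads. DCLRE1C, the nuclease Artemis, had the lowest, -0.20, from 235 and 160 reads.

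Of 7 proprotein convertases, the protease family that cuts secreted precursors, 4 were measured, 1 above 0 and 3 below, with a median log2 ratio of -0.04. MBTPS1 stood at 22.9 and 21.98 RPKM and FURIN at 12.7 and 12.4. PCSK7 had the highest log2 ratio, 0.03, and PCSK6 the lowest, -0.10.

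**Figure D4:**
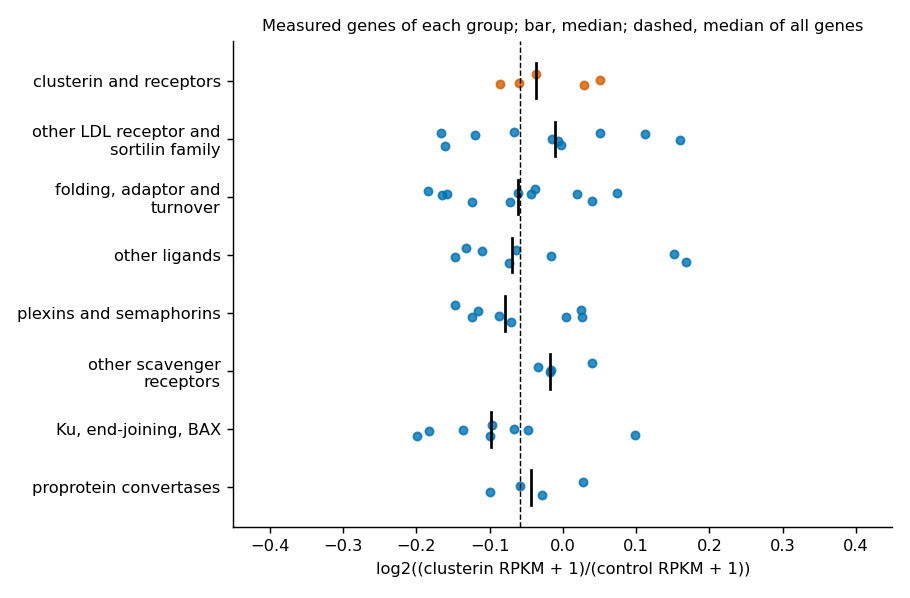
log2((clusterin RPKM + 1)/(control RPKM + 1)) of each measured gene, by group, with the group's median as a bar and the median of all measured genes (-0.06) as a dashed line. The measured members (orange) run from -0.09 to 0.05, and the pathway genes (blue) from -0.20 for DCLRE1C to 0.17 for PDGFB.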

How the data were processed

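RNA of 1 clusterin-treated and 1 control library of D407 cells was analysed, grouped by the agent in the labels. The submitters' processing notes name Cuffdiff, TopHat and Bowtie, without versions, and build hg19, though the lower coordinate of each member in the table lies within 132 bases of RefSeq on GRCh38. The authors deposited 1 level per gene and library, a log2 fold change, and a p-value and q-value. The level unit is not named in the file headers; levels of 480 of 522 small RNA genes times length were whole numbers within 0.02 at a fixed total, so the deposited values are called RPKM.

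Reads were recovered for 20472 of 20642 genes above 0 by searching lengths up to 40000 bases at which both values were whole and gave the deposited p within 0.1% (0.6% for small p-values), with Python 3.11.15 and scipy 1.17.1. Whole numbers cannot tell reads from read pairs. Ratio intervals are exact Clopper-Pearson, level intervals exact Poisson, at 95%. Genes at 0 carry a deposited q of 0, not taken as a call. A gene was measured at a mean of at least 1 RPKM, with a pseudocount of 1 on the log2 scale. With 1 library per group no test was made. Only the recovery of reads was tested on simulated data, where 1831 of 1997 genes were recovered, all of them with both counts right. Members and lists were chosen with earlier results of these data known. Named are all members, the 2 highest and both extreme ratios of each list, and the highest of each marker list. The 5 genes nearest to CLU among those listed by symbol are named too. Other genes are named after their values were seen. Some genes that this rule names are not reported here. Other pseudocounts, filters and scalings were tried.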

Additional observations from a re-analysis of the deposited data

How the results depend on the processing

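No paired analysis was possible because each group has 1 library, and no library could be left out. Of 21 member values under other pseudocounts and with the control rescaled to a median log2 ratio of 0, 19 moved by less than their counting interval. The intervals are those of the RPKM ratio without a pseudocount. At the low levels of LRP2 and SCARF1 the values could not have moved past intervals so wide, so they do not count as evidence of stability. With the control rescaled, CLU moved to -0.018 and XRCC6 to 0.0096, and LRP1 (0.0075) and SCARF1 (0.0029) also turned from below to above 0. The rescaling multiplied every control level by 0.953. With the pseudocount of 1 RPKM low genes moved less, LRP2 only from 0.0127 to 0.0133. The count of genes past 2-fold was 76 when 0.1 RPKM was added before the log, 5 when 5 RPKM were added, 7 with a mean of at least 5 RPKM, 36 with no filter and 28 rescaled. No gene of the 8 pathway lists passed 2-fold under any of these. Each setting changed 1 step only. Genes too low to count as measured were therefore left out, or, once the filter was dropped, still had 1 RPKM added. The result thus cannot speak for low genes such as MYLIP and APOE, whose RPKM ratios were 0.459 and 0.360. The medians of all 7 lists with at least 3 measured genes lay below 0, and so did 28 of 28 under the other pseudocounts and filters. A pseudocount cannot change the sign of a gene's log2 ratio, and the filters shared genes with the main setting. The 28 values therefore do not count as evidence of stability. Rescaling turned 4 of the 7 above 0, the scavenger receptors to 0.05 and the convertases to 0.02 among them. At a deposited q below 0.01, 0 members were called, against a share of 6.50% of genes above 0. Depth limits LRP2 and SCARF1, with 14 and 24 reads in all.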
